A study of Mus musculus with 18 samples.

Results

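The genes described here were higher in cells without Nsd1 at every day sampled, before and during differentiation. They were chosen by their measured values: the mean of the KO libraries exceeded the mean of the WT libraries by at least 0.58 on the log2 scale of the deposited table at day 0, day 2 and day 4, and the lowest KO library lay above the highest WT library at each day. Of 20703 genes in the table, 137 met these conditions. After 2 genes of the Y chromosome (Uba1y and Kdm5d) and 5 genes set aside by name (Nsd2, Sfmbt2, Tcf12, Ntn1 and Sohlh2) were dropped, 130 genes remained, 0.628% of the table. Because the KO minus WT values selected these genes, those values are given as a description and carry no test.

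The cells were E14 mouse embryonic stem cells, a line that stays pluripotent in the presence of the cytokine LIF and a layer of fibroblast feeder cells (MEF). They were WT, or belonged to 1 of 2 clonal lines, KO-1 and KO-2, in which exon 5 of Nsd1 was deleted on both alleles with CRISPR-Cas9 in cells that carried a 3×Flag tag at the endogenous Nsd1 gene. Each KO line is 1 clone, so a difference between KO and WT can also hold what a clone acquired on its own, and whether the WT cells of these libraries carried the tag is not given in the sources used here. RNA was taken at day 0, at day 2 and at day 4 after LIF and MEF were withdrawn, with 2 libraries per line and day that the labels call biological replicates, 18 libraries in all. The depth ran from 9309874 to 23921193 counts per library.

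NSD1 is a histone methyltransferase that places dimethylation on lysine 36 of histone H3 over broad intergenic and genic regions. In embryonic stem cells this mark recruits DNA methylation and limits the spread of the repressive mark of Polycomb, H3K27me3. Exit from pluripotency in such cells involves the loss of naive factors and the rise of lineage genes under Nodal, Wnt, FGF and other signals, and germline genes are kept silent in part by promoter DNA methylation. This is background and was not measured in the RNA libraries.

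Nsd1 itself checked the labels. Its normalized counts, that is counts divided by the size factor of the library, were 3374 and 3660 in the WT libraries of day 0 and 837, 711, 689 and 635 in the KO libraries. At day 2 they were 2773 and 3344 in WT and 854 to 1024 in KO, and at day 4 2425 and 2111 in WT and 575 to 1103 in KO. The groups did not overlap at any day, and the counts left in KO cover the whole gene, including exons that were not deleted. The pluripotency genes Pou5f1 and Nanog were abundant at day 0, with mean normalized counts of 9175 and 7968 in WT and 6843 and 7349 in KO.

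Some Y-linked genes set the WT libraries apart from the KO libraries. Kdm5d, a histone demethylase, had normalized counts of 16.8 and 14.4 in WT and 323 to 559 in KO at day 0, and 0 and 3.79 in WT and 260 to 575 in KO at day 4. Uba1y, a ubiquitin-activating enzyme, had 164 and 176 in WT and 585 to 683 in KO at day 0, and 14.1 and 15.2 in WT and 548 to 640 in KO at day 4. Zfy1 and Zfy2 were likewise lower in WT, whereas Eif2s3y had 1499 and 1611 normalized counts in WT and 1125 to 1304 in KO at day 0. Whether the WT cells are the parental line of the KO clones is not given in the sources used here, so a difference between KO and WT can also be one between the lines, and its part in the values below was not tested.

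The members took a small share of the RNA, and that share was larger in KO. Together they held 0.511% and 0.493% of the counts in the WT libraries of day 0, 0.424% and 0.456% at day 2 and 0.392% and 0.384% at day 4. In the KO libraries the share ran from 1.22% to 1.26% at day 0, from 1.39% to 1.56% at day 2 and from 1.23% to 1.32% at day 4. The median KO minus WT difference over the members was 0.76 on day 0 (range 0.59 to 1.73), 1.11 on day 2 (0.59 to 2.41) and 0.99 on day 4 (0.58 to 2.61), beside medians over all genes of 0.00, −0.02 and 0.00. The deposited scale compresses differences between weakly expressed genes. As ratios of mean normalized counts, the median over the members was 2.86, 3.99 and 4.64 on days 0, 2 and 4, with genes at 0 in WT taken as unbounded. KO exceeded WT more than 10 times in 12 members at day 0, 26 at day 2 and 39 at day 4. The difference was smallest at day 0 in 85 of the 130 members, at day 2 in 16 and at day 4 in 29.

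By limma on the deposited values, a gene was called where its Benjamini-Hochberg adjusted p was below 0.01 and its log2 difference exceeded 0.58 in size. By this measure 129 of the 130 members were called higher at day 0, and 130 at day 2 and at day 4. Over all genes, 1.73% were called higher at day 0, 4.01% at day 2 and 3.67% at day 4. The rule used the same contrasts, so nothing is read from these counts. All 130 genes are protein coding, beside 77.2% of the table. The members nearest above the threshold were Srgap2, with a smallest difference of 0.5809, Clstn1 (0.5841) and Dock5 (0.5842). Those nearest below were the Notch ligand gene Jag1 (0.5798), Abr (0.5783) and Stim1 (0.5763).

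**Figure D1:**
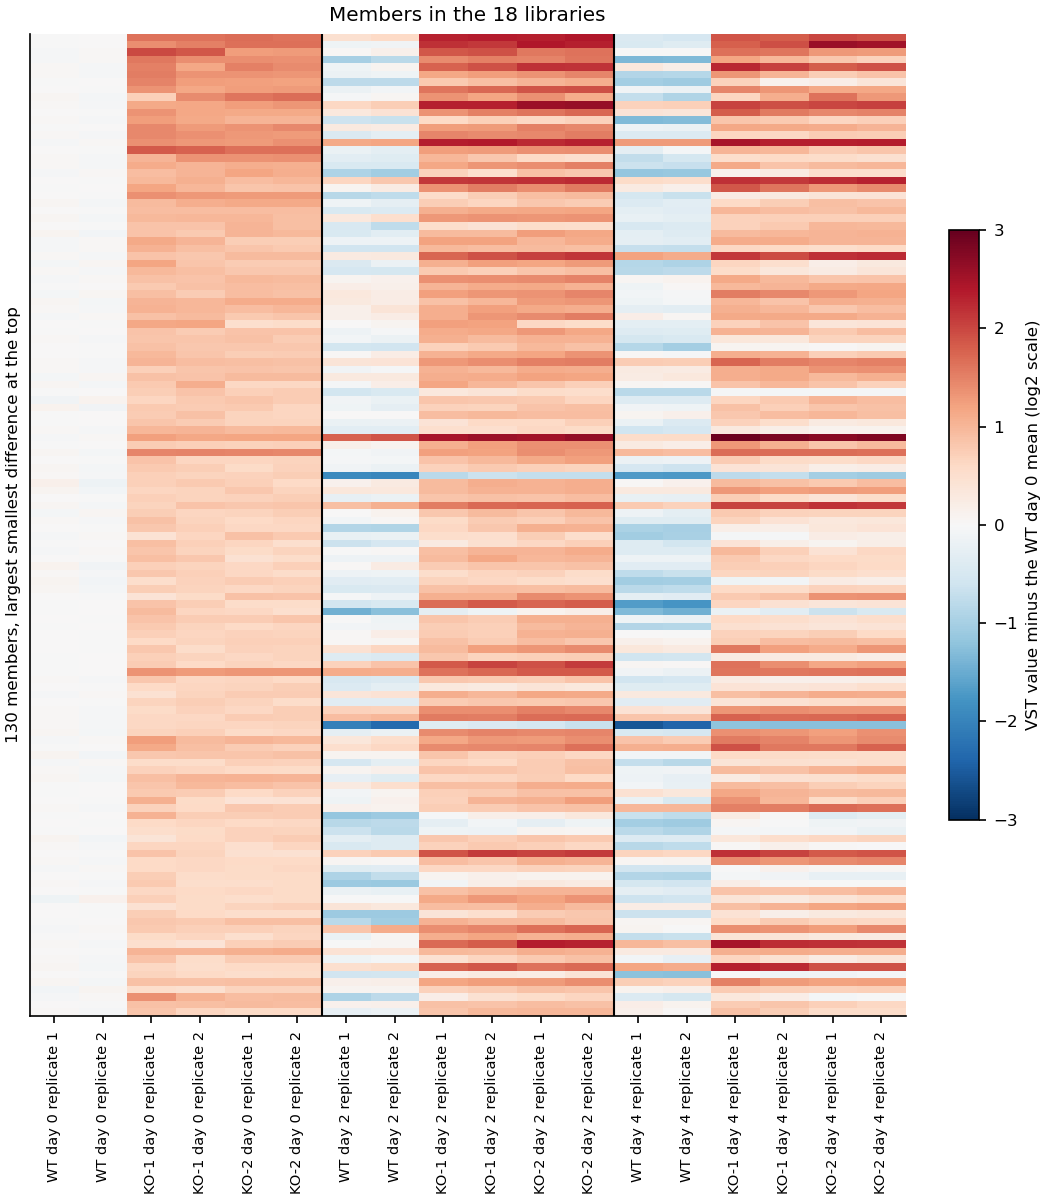
Heat map of the 130 members (rows) in the 18 libraries (columns), as the VST value minus the mean of the 2 WT libraries of day 0, on a log2 scale with colors limited to −3 and 3. KO columns are redder than the WT columns of the same day in every row, as the rule requires. The WT columns of day 0 are near 0 by construction.

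The members ranked first by their smallest difference over the 3 days were Slc27a2, Lefty1, Nckap1l, Dnajc6, Pcdh19, Nexmif, Fut9, Lmo7, Pcsk1n, Hecw2, Lgr4 and Piwil2. Slc27a2, a very long chain acyl-CoA synthetase and fatty acid transporter, had 224 and 224 normalized counts in WT and 1667, 1661, 1727 and 1664 in KO at day 0. At day 2 the values were 469 and 559 in WT and 3028 to 3235 in KO, and at day 4 they were 86.5 and 68.2 in WT and 1975 to 2330 in KO. The KO to WT ratio was 7.49, 6.06 and 27.9 at the 3 days, and the KO libraries of a day lay close together. Dnajc6, which encodes auxilin, a cochaperone that uncoats clathrin vesicles, had 455 and 512 normalized counts in WT and 2066 to 2499 in KO at day 0, and 16.1 and 16.4 in WT and 1093 to 1758 in KO at day 4. Its ratio therefore ran from 4.55 at day 0 over 24.7 at day 2 to 84.9 at day 4, and it fell in WT by 1.34 on the log2 scale between day 0 and day 4. Nckap1l, a hematopoietic subunit of the WAVE actin-regulatory complex, had WT means of 125, 152 and 122 normalized counts at the 3 days and KO means of 1264, 1428 and 1077.

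Pcdh19, an X-linked protocadherin for cell adhesion, had 38.6 and 28.8 normalized counts in WT and 454 to 721 in KO at day 0, and 98.6 and 63.1 in WT and 1006 to 1545 in KO at day 4. Nexmif, an X-linked gene of neuronal development, had means of 424, 339 and 77.3 in WT and 1930, 1788 and 1348 in KO. Fut9, a fucosyltransferase that makes the Lewis X epitope known as SSEA-1, had 559 and 567 normalized counts in WT and 1984 to 2544 in KO at day 0, and 90.6 and 78.3 in WT and 661 to 1203 in KO at day 4. Hecw2, a ubiquitin ligase, was higher at day 4 than at day 0 in both genotypes, from 25.2 and 17.3 in WT and 384 to 507 in KO at day 0 to 187 and 192 in WT and 1014 to 1162 in KO at day 4. Pcsk1n, which encodes an inhibitor of a prohormone convertase, had 434 and 355 in WT and 956, 1876, 2247 and 2352 in KO at day 0, with the 2 KO-1 libraries far apart.

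**Figure D2:**
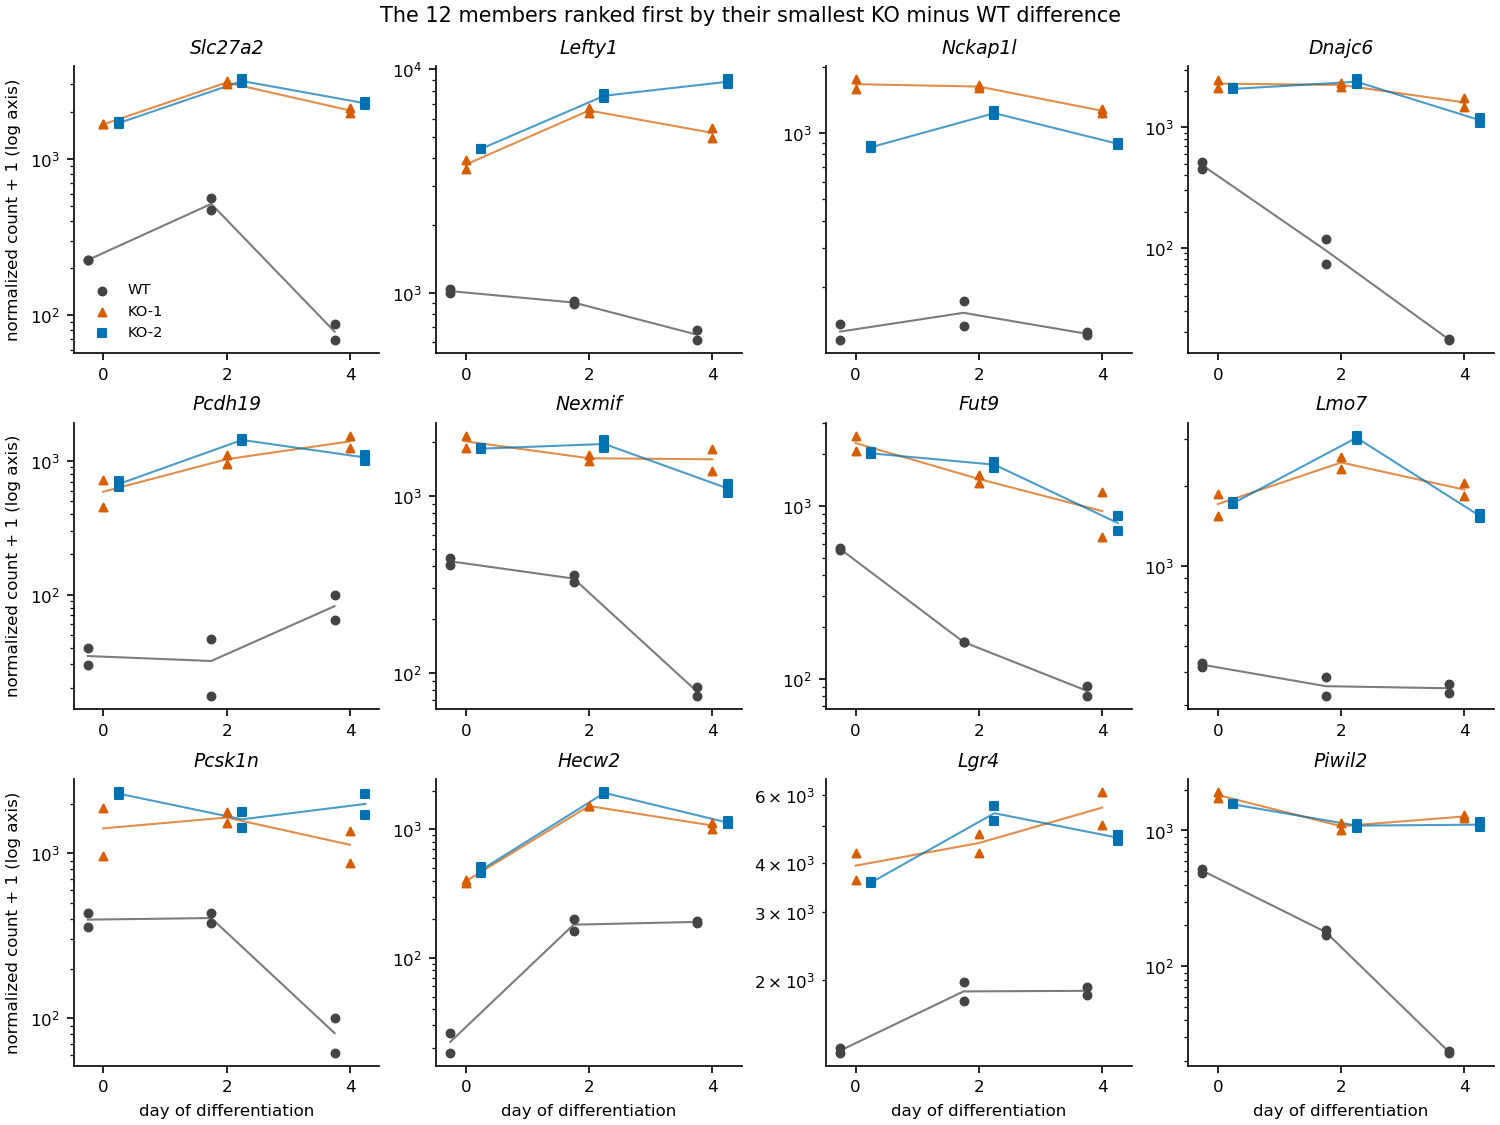
Normalized counts plus 1 (log axis) against the day of differentiation for the 12 members ranked first, with 1 point per library and lines through the mean of each line and day. The WT points lie below all KO points in each panel and day, Dnajc6 and Piwil2 are at 16.1 to 22.7 normalized counts in WT at day 4, and Nckap1l is higher in KO-1 than in KO-2.

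The signalling members included feedback inhibitors, receptors and a transcription factor. Lefty1, a secreted inhibitor of Nodal, had 994 and 1037 normalized counts in WT and 3568, 3923, 4416 and 4405 in KO at day 0. At day 2 the values were 888 and 917 in WT and 6370 to 7786 in KO, and at day 4 613 and 683 in WT and 4929, 5466, 9033 and 8587 in KO. The KO to WT ratio was 4.02, 7.85 and 10.8, and at day 4 both KO-2 libraries lay above both KO-1 libraries. Lefty1 was the only member among the 38 measured genes of the Nodal and BMP list, of which 2 were called higher and 0 lower at day 0, 6 and 0 at day 2, and 4 and 7 at day 4. Genes called lower made up 0.879%, 2.37% and 3.91% of the table at the 3 days.

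Of 56 Wnt genes, Lgr4 and Notum were members. Lgr4, a receptor for R-spondins that raises Wnt signalling, kept a nearly constant ratio of 2.86, 2.65 and 2.73, with 1329 and 1295 normalized counts in WT and 3566 to 4264 in KO at day 0. Notum, a secreted enzyme that inactivates Wnt proteins, had 50.3 and 34.5 in WT and 347 to 422 in KO at day 0, and 11.4 and 3.24 in WT and 203 to 263 in KO at day 2. In the Wnt list 4 genes were called higher and 2 lower at day 0, 5 and 4 at day 2, and 9 and 14 at day 4, when the median difference was −0.10. Of 28 FGF genes, the receptor gene Fgfr2 and the ETS factor Etv1 were members. Fgfr2 had 150 and 170 normalized counts in WT and 606 to 710 in KO at day 0, and Etv1 had 474 and 393 in WT and 1343 to 1513 in KO. The list had 4 genes called higher and 1 lower at day 0, 2 and 4 at day 2, and 3 and 8 at day 4.

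Hedgehog target genes were members together. Ptch1 encodes a receptor that restrains the pathway and Gli1 a transcription factor, and both are widely used as readouts of Hedgehog signalling. Ptch1 had 3442 and 3473 normalized counts in WT and 6707, 6193, 5363 and 5358 in KO at day 0. At day 2 it had 2180 and 2345 in WT and 12373, 13925, 13153 and 13814 in KO, and at day 4 697 and 630 in WT and 4611 to 5770 in KO. The KO libraries were highest at day 2 and the WT libraries at day 0. Gli1 had 328 and 289 in WT and 617 to 741 in KO at day 0, and 43.3 and 53.7 in WT and 317 to 394 in KO at day 4. The list of Notch, Hedgehog and retinoid genes held 41 measured genes, with 5 called higher and 2 lower at day 0, 8 and 0 at day 2, and 5 and 2 at day 4. Among its other genes, Gli2, a transcription factor of the same pathway, had differences of 0.01, 1.33 and 0.99 on days 0, 2 and 4, and was not a member.

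**Figure D3:**
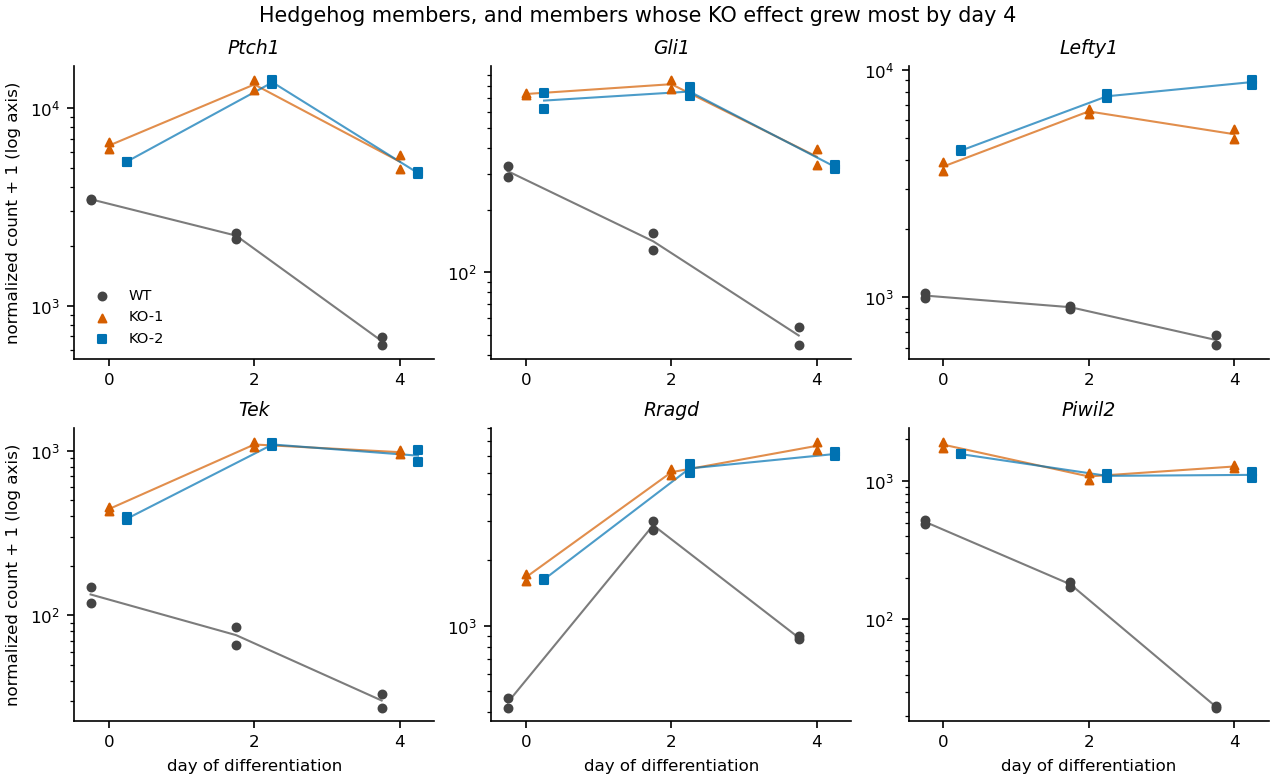
Normalized counts plus 1 (log axis) against the day of differentiation for the Hedgehog genes Ptch1 and Gli1 and for Lefty1, Tek, Rragd and Piwil2, with 1 point per library and lines through the mean of each line and day. Ptch1 reaches 12373 to 13925 in the KO libraries of day 2, and Tek at day 4 is at 32.2 and 26.5 in WT and between 857 and 1004 in KO.

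Piwil2, a PIWI protein that binds piRNAs and silences transposons, had 522 and 488 normalized counts in WT and 1554 to 1916 in KO at day 0. At day 4 it had 22.1 and 22.7 in WT and 1055 to 1292 in KO, a ratio of 52.8. Dppa3, also called Stella, protects methylated DNA in the egg and marks naive stem cells and germ cells, and had 92.3 and 79.1 in WT and 551, 801, 814 and 830 in KO at day 0. At day 4 Dppa3 had 0 and 6.31 in WT and 242 to 297 in KO. Piwil2 was the only member among 65 germline and meiosis genes, of which 3 were called higher and 3 lower at day 0, 10 and 4 at day 2, and 17 and 2 at day 4.

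In the list of 25 naive and core pluripotency genes, the members were Dppa3 and Fbxo15, an F-box gene known as a marker of undifferentiated cells. Fbxo15 had 2505 and 2336 normalized counts in WT and 4073 to 4196 in KO at day 0, and 67.4 and 107 in WT and 694 to 736 in KO at day 4. In this list 3 genes were called higher and 0 lower at day 0, with a median difference of 0.22, beside 14 and 1 at day 2 and 17 and 2 at day 4, with medians of 0.68 and 1.16. Most genes of the list thus did not reach the threshold at day 0 and were not members.

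The members included 6 of 56 measured genes of families read in testis or placenta: Rhox1, Rhox2a, Rhox5, Xlr3c, Magea4 and Nxf3. All 6 are X-linked, but the list as a whole is not. It also holds the Pramel genes, with Pramel13 the most abundant gene of the list. Rhox5, a homeobox gene, was the most abundant of the Rhox members, with 650 and 541 normalized counts in WT and 1063 to 1369 in KO at day 0 and 94.6 and 102 in WT and 500 to 788 in KO at day 4. Rhox1 had 12.6 and 40.3 in WT and 178 to 248 in KO at day 0. At day 4 it had 0 counts in both WT libraries and 174 to 342 normalized counts in KO. Against a floor of 3 counts per library, KO was higher by about 106-fold or more. Rhox2a had 1.68 and 0 in WT and 74.5 to 215 in KO at day 0. Magea4 was at 0 counts in all WT libraries of day 2 and day 4, and the KO libraries had 207 to 222 normalized counts at day 2, at least 44.1-fold higher. Nxf3, a gene of the nuclear RNA export factor family, had 26.8 and 34.5 in WT and 231 to 430 in KO at day 0, and 4.03 and 2.53 in WT and 363 to 422 in KO at day 4. Rhox2a, Xlr3c and the Magea genes have near-identical copies, so their counts may be split among or lost to paralogs. The whole list had 7 genes called higher and 0 lower at day 0, 10 and 0 at day 2, and 9 and 0 at day 4. Many of its genes were at or near 0 counts in WT, among them Rhox2g, Magea5 and Magea14. Such genes could not be called lower, so the absence of lower calls is partly set by the floor.

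More widely, 19 of the 130 members (14.6%) lie on the X chromosome, which holds 3.73% of the genes in the table. Of the 773 X-linked genes 2.46% were members, beside 0.261% to 1.28% on the autosomes, with the highest autosomal share on chromosome 14. The other X-linked members were Pcdh19, Nexmif, Pcsk1n, Pls3, Kctd12b, Nup62cl, Usp26, Efhc2, Jade3, Gm14569, Hs6st2, Fhl1 and Armcx4. Among the 371 X-linked genes expressed above the median level, the median KO minus WT difference was 0.11, 0.09 and 0.02 on days 0, 2 and 4, and on the autosomes the same medians ran from −0.01 to 0.05, from 0.01 to 0.07 and from −0.04 to 0.02. The X median was thus above those of all autosomes at day 0 and day 2 and within their range at day 4. The share called higher was 5.69%, 7.24% and 7.37% on the X at the 3 days and at most 3.14%, 5.85% and 4.87% on an autosome. At day 4 the share called lower was also highest on the X, at 5.95%, beside at most 5.14% on an autosome. The choice of members used the same differences, so these shares describe the chromosome and are not a test.

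**Figure D4:**
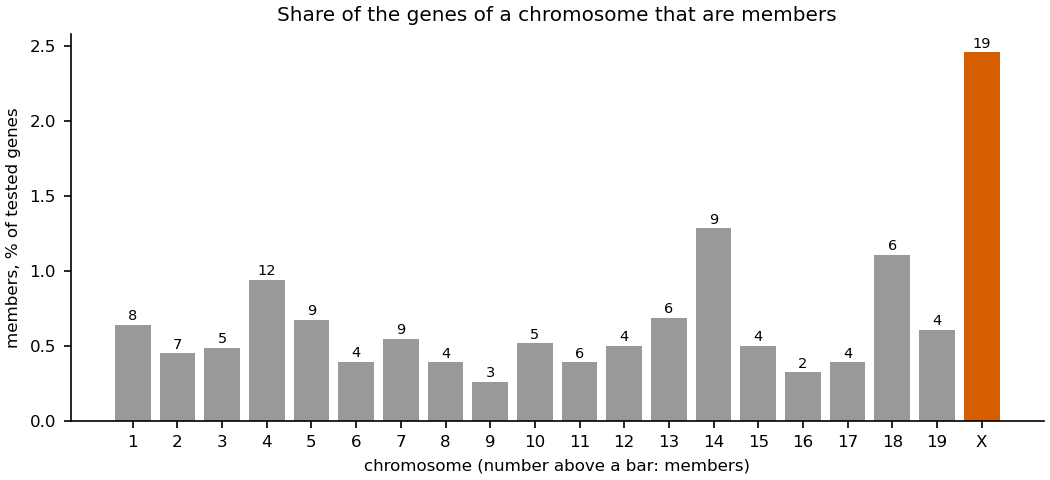
Share of the tested genes of each chromosome that are members, in percent, with the number of members above each bar. The X chromosome, in orange, has 19 members and 2.46% of its genes, and the highest autosome is chromosome 14 with 9 members and 1.28%.

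Promoter sequence was compared because DNA methylation acts on CG dinucleotides. The RefSeq windows (GRCm38.p6) run from 250 bases before to 50 bases after a start site, and 98 of the 130 members had 140 of them, out of 17008 windows in all. The median ratio of observed to expected CG was 0.66 for the members and 0.70 for all windows, and 29.3% and 25.4% of windows were under 0.4. On the X chromosome the median was 0.34 for 21 member windows, with 61.9% under 0.4, and 0.55 for all 672, with 31.7%. For the 119 member windows not on the X it was 0.69, with 23.5% under 0.4. Below are the 100 bases before the start of 4 X-linked family members, followed by those of Pcdh19, also on the X, and of the first-ranked Slc27a2, with each CG in capitals:
Rhox1 (chrX:37222259-37222358, minus strand): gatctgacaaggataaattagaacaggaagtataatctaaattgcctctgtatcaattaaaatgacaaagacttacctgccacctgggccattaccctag
Rhox2a (chrX:37244892-37244991, plus strand): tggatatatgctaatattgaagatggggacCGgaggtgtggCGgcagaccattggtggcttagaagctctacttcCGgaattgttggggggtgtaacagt
Rhox5 (chrX:37754508-37754607, plus strand): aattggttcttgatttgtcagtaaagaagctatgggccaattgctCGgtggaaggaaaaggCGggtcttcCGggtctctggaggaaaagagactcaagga
Magea4 (chrX:72221917-72222016, plus strand): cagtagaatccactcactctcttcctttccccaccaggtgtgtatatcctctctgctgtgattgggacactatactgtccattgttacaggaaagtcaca
Pcdh19 (chrX:133688994-133689093, minus strand): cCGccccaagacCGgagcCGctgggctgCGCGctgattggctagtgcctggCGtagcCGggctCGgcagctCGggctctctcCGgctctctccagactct
Slc27a2 (chr2:126552924-126553023, plus strand): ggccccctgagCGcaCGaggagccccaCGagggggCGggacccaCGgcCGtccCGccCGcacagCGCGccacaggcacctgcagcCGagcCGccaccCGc

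The full 300-base windows held 0 CG in Rhox1, 2 in Magea4, 5 in Rhox5, 8 in Rhox2a, 18 in Pcdh19 and 25 in Slc27a2, beside a median of 18 in all windows and 12 on the X. No CG was found in 1.05% of all windows. Both kinds of window thus occurred among the members. A search on both strands found the letters CACGTG, the E-box of MYC and MGA with their partner MAX, in 6.43% of member windows and 9.34% of all windows, and GGCGGGA, an E2F site, in 19.3% and 18.6%. These are matches of letters in a window and not shown to be binding sites.

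Neuronal and cell-surface genes were spread over several lists. Tubb3, the neuronal class III beta-tubulin, had 834 and 739 normalized counts in WT and 2004 to 2395 in KO at day 0 and a ratio of 3.44 at day 4. Ina, a neuronal intermediate filament gene, had 621 and 647 in WT and 2284 to 2457 in KO at day 0, 1972 and 1926 in WT and 3104 to 3657 in KO at day 2, and 556 and 512 in WT and 2983 to 3077 in KO at day 4. The WT peak of Ina at day 2 brought its ratio down from 3.75 to 1.76. Scn3a, a voltage-gated sodium channel, had 26.8 and 25.9 in WT and 227 to 268 in KO at day 0. The semaphorins Sema3e and Sema4b, guidance cues, had ratios of 3.75 and 1.73 at day 0 and 2.50 and 2.28 at day 4. Vcan, a chondroitin sulfate proteoglycan of the extracellular matrix, had 637 and 646 in WT and 1562 to 2126 in KO at day 0. By list, Tubb3 was 1 of 32 neuroectoderm genes, Scn3a 1 of 226 ion channel genes, the semaphorins 2 of 69 axon guidance genes and Vcan 1 of 156 matrix genes, shares of 0.442% to 3.13% beside 0.628% of the table. Ntn1, also in the axon guidance list, met the conditions and was set aside by name. Most genes of these lists were not called, and some were called lower. The neuroectoderm list had 6 genes called higher and 1 lower at day 0, 7 and 4 at day 2, and 3 and 2 at day 4. In it Nes, a neural progenitor filament, had differences of 0.68, −1.09 and −1.39 at the 3 days. The axon guidance list had 5 and 0, 9 and 6, and 6 and 12 at these days, the matrix list 13 and 2, 21 and 3, and 9 and 13, and the ion channel list 4 and 2, 12 and 4, and 11 and 7.

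Of 37 genes of PRC1 and PRC1.6, the Polycomb complexes that ubiquitinate histone H2A, Bmi1, Scmh1 and Auts2 were members. Sfmbt2, also in this list, met the conditions and was set aside by name. Bmi1, a PCGF subunit, had 110 and 44.6 normalized counts in WT and 273 to 364 in KO at day 0, and 82.5 and 106 in WT and 367 to 457 in KO at day 4, with ratios of 4.19, 4.15 and 4.48 at the 3 days. Auts2, a subunit of a noncanonical PRC1, had ratios of 2.19, 2.13 and 3.55, and Scmh1 2.34, 2.79 and 3.24. In this list 5 genes were called higher and 0 lower at day 0, 5 and 2 at day 2, and 8 and 2 at day 4. Rb1, the retinoblastoma protein that restrains entry into S phase, had 408 and 384 in WT and 896 to 971 in KO at day 0. The list of 58 histone and DNA methylation enzymes has 0 members after Nsd2, an H3K36 methyltransferase that met the conditions, was set aside by name.

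The other members from the lists were 2 imprinted genes, Impact and Smoc1, of 44, 2 zinc finger genes, Zfp518b and Zscan5b, of 471, the solute carriers Slc39a14 and Slco4c1 with Slc27a2 of 325, and Fads2, a fatty acid desaturase, of 40 lipid genes. Impact had 1133 and 1175 normalized counts in WT and 2186 to 3244 in KO at day 0. Slco4c1, an organic anion transporter, had ratios of 4.81, 22.6 and 37.3 as WT went from a mean of 169 to 19.9 normalized counts. In all, 36 of the 130 members were in 1 or more of 28 lists. Fgfr2 was also 1 of 14 trophoblast markers, Pcdh19 1 of 83 cadherin genes, Ina and Tubb3 2 of 52 cytoskeleton genes and Rb1 1 of 37 genes of p53 and G1. The trophoblast list had 1 gene called higher and 0 lower at day 0, 2 and 3 at day 2, and 2 and 6 at day 4, when its median difference was −0.38. The cytoskeleton list had 5 and 1, 4 and 8, and 3 and 15, with a median of −0.24 at day 4, and the cadherin list 5 and 0, 5 and 3, and 5 and 7. The other lists with 0 members were the feeder fibroblast, endoderm, two-cell-like, streak and mesoderm, homeobox, interferon and stress genes. The homeobox list leaves out the Rhox family, which was counted with the testis and placenta families.

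Most abundant among the members, by the mean normalized count over all libraries, were Ptch1, Lefty1, Igf2bp2, Map1b and Clstn1, and least abundant were Rhox2a, Gm14569, Ccdc169, Magea4 and Zscan5b. Igf2bp2, an RNA-binding protein, had 2782 and 2769 normalized counts in WT and 5783 to 5848 in KO at day 0. Map1b, a microtubule-associated protein, had the widest KO spread of these at day 0, from 4215 to 6962. Ccdc169 had 3.35 and 0 in WT and 128 to 146 in KO at day 0, and at most 3.35 in any WT library.

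Markers of other cells were read in the same libraries. The summed normalized counts of 22 feeder fibroblast markers, with Col5a1 the most abundant over all libraries and Col1a1 at day 0, were 7078 and 6934 in WT and 10293 to 11904 in KO at day 0, 2853 and 2652 in WT and 2113 to 2692 in KO at day 2, and 15438 and 14983 in WT and 4202 to 6572 in KO at day 4. Of these 22, 3 were called higher and 1 lower at day 0, and 1 higher and 5 lower at day 4, and each was detected in at least 1 library. The median difference over the 22 markers was 0.28, 0.00 and −0.19 at the 3 days. At day 0 the markers called higher in KO were Col1a1 (0.68), Col3a1 (0.62) and Col1a2 (0.60). At day 4 Col5a1 had a mean of 8774 in WT and 1096 in KO, and Col5a2 78.7 in WT and 816 in KO. For 25 streak and mesoderm genes, led by T, the sums were 1514 and 1449 in WT and 835 to 1075 in KO at day 0 and 44388 and 43837 in WT and 3554 to 4059 in KO at day 4. In bulk RNA, more cells of a type and more RNA per cell cannot be told apart, and the part of cell composition in the members' values was not tested.

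The time courses within a genotype rest on libraries that the rule also used, and low WT values at day 4 favour selection, so they are given as a description with no p. In WT, 35 of the 130 members (26.9%) fell and 14 (10.8%) rose from day 0 to day 4, beside 6.16% and 7.68% of all genes, and their median change was −0.29, beside −0.01 for all genes. In KO, 20 members fell and 21 rose, beside 3.06% and 3.44% of all genes, with a median of −0.05. With limma-voom on counts, 60 members fell and 21 rose in WT, beside 17.6% and 17.1% of all genes, and 36 fell and 27 rose in KO, beside 14.8% and 12.7%. The same 16 genes fell in both genotypes, and 19 fell in WT without a call in KO, while 0 rose in one genotype and fell in the other. Piwil2 fell in WT by 1.31 on the log2 scale (SE 0.08) and its change in KO was −0.37. Ptch1 fell in WT by 1.73 (SE 0.10), and changed by −0.21 in KO. Fbxo15 fell in both, by 2.48 in WT and 1.89 in KO. Among the genes that rose in both were Sema3e, by 1.16 in WT and 1.24 in KO, and Hs6st2, a heparan sulfate sulfotransferase, by 0.84 and 1.06.

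The change of the KO minus WT difference with time is made of the values that chose the members, and it too is a description. By the same call, between day 0 and day 4 it grew in 19 members (14.6%) and shrank in 2, beside 2.81% and 4.13% of all genes, with a median change of 0.17 for the members and 0.01 for all genes. With limma-voom it grew in 47 and shrank in 6, beside 6.89% and 8.01% of all genes. Nothing is read from these shares, since 85 members have their smallest difference at day 0 and those close to the threshold there could mainly grow. The largest growth was in Ptch1, by 1.52 (SE 0.12), followed by Tek, a receptor for angiopoietins, by 1.16 (SE 0.08). Rragd, a GTPase that links amino acids to mTORC1, grew by 1.08 and Lefty1 by 1.06. Tek had 148 and 118 normalized counts in WT and 375 to 451 in KO at day 0, and 32.2 and 26.5 in WT and 857 to 1004 in KO at day 4. Rragd had 420 and 466 in WT and 1603 to 1723 in KO at day 0, 2751 and 3012 in WT and 4874 to 5490 in KO at day 2, and 865 and 893 in WT and 5980 to 6959 in KO at day 4. The difference in Rragd at day 2 was thus smaller than at the other days.

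The 2 members in which the difference shrank by day 4 were Ppp2r2c and Adgrg6. Ppp2r2c, a regulatory subunit of protein phosphatase 2A, had 290 and 234 normalized counts in WT and 1518 to 1587 in KO at day 0 and 955 and 898 in WT and 1824 to 1883 in KO at day 4, a change of −0.76 (SE 0.08). Adgrg6, an adhesion G protein-coupled receptor, changed by −0.65 on the deposited scale and by −0.08, with no call, with limma-voom on counts, and its WT libraries held at most 33.5 normalized counts. Zfyve9 and Dock5 had the next most negative changes, −0.41 and −0.49, with no call. Between day 0 and day 2 the difference grew in 22 members and shrank in 1, Ina, beside 2.08% and 1.11% of all genes. With limma-voom it grew in 31 and shrank in 4, beside 4.09% and 3.25% of all genes. These held 18 of the 23 called on the deposited values. On the deposited scale Ptch1 again grew most, by 1.6, and Ina changed by −0.66 (SE 0.08).

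**Figure D5:**
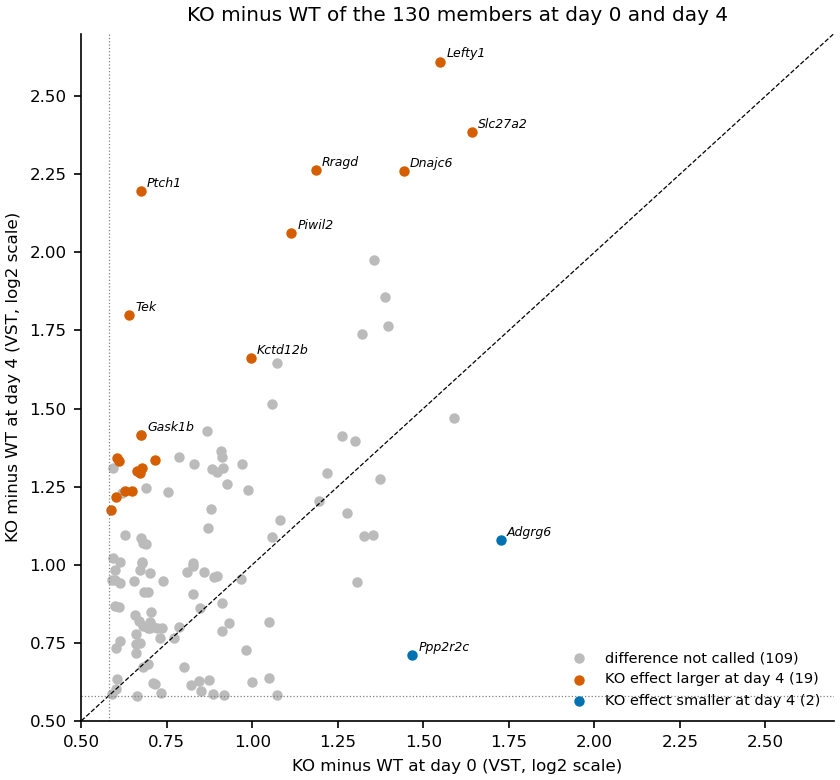
KO minus WT difference at day 4 against that at day 0 (both on the log2 scale of the VST values) for the 130 members, colored by the limma call of the change, with dotted lines at the threshold of 0.58 and a dashed line of equality. The change was called larger in 19 members (orange), with Lefty1 highest at day 4, and smaller in 2 (blue), Adgrg6 and Ppp2r2c, while 33 members in all lie below the line.

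The KO clones were compared at each day. The test of KO-1 against KO-2 called 2 members at day 0, 1 at day 2 and 1 at day 4, beside 0.029%, 0.0435% and 0.251% of all genes, and the differences over the members ran from −0.57 to 0.66 at day 0, from −0.57 to 0.64 at day 2 and from −0.70 to 0.52 at day 4. With limma-voom on counts, 3 were higher and 1 lower in KO-1 at day 0, beside 0.14% and 0.0193% of all genes. At day 2 it was 1 and 1, beside 0.14% and 0.0918%, and at day 4 2 and 3, beside 1.37% and 0.865%. Leaving out 1 library gave up to 4, 2 and 4 members on the 3 days. At an unadjusted p under 0.05, 43 members differed at day 0, 55 at day 2 and 67 at day 4, beside 14.8%, 12.3% and 25.3% of all genes. Applied to KO-1 alone against WT, the rule kept 115 of the 130 members, and to KO-2 alone 106. Nckap1l was higher in KO-1 at day 0 by 0.66 (adjusted p = 3.04e-06, limma), with 1754 and 1579 normalized counts in KO-1 and 855 and 869 in KO-2. Xlr3c was higher in KO-1 at day 0 and at day 2 by 0.64, with 357 and 368 in KO-1 and 103 and 110 in KO-2 at day 0. Lefty1 was lower in KO-1 at day 4 by 0.70. At day 2, 105 of the 130 members were lower in KO-1 than in KO-2, beside 51.8% of all genes, and at day 4 86 were higher, beside 49.3%.

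Few members lay side by side. Within 100 kb of each other, with 0 other tested genes between, were Slc39a14 and Piwil2 (21.05 kb apart on chromosome 14), Ak4 and Dnajc6 (29.65 kb, chromosome 4), Me1 and Prss35 (47.7 kb, chromosome 9), Rhox1 and Rhox2a (22.7 kb, X) and Hs6st2 and Usp26 (72.1 kb, X). From day 0 to day 4 in WT, Ak4 and Dnajc6 both fell, by 0.86 and 1.34, whereas Hs6st2 rose by 0.84 and Usp26, a deubiquitinase read in testis, fell by 0.89. Of the 250 nearest tested genes that were not members, 4, 14 and 11 were called higher on the 3 days in turn. These are 1.6%, 5.6% and 4.4%, beside 1.73%, 4.01% and 3.67% of all genes. The median differences of these neighbours were 0.03, 0.05 and 0.04, beside −0.003, −0.016 and 0 for all genes.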

How the data were processed

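Per the labels and the methods, the authors trimmed the reads with Trim Galore 0.6.7, aligned them to mm39 with STAR 2.7.11a, counted primary, nonduplicated ones on exons with featureCounts 2.0.6, dropped genes averaging under 1 count, and deposited log2 values from the variance stabilizing transformation (VST) of DESeq2 1.42.0. A count of 0 is 8.36 on this scale. Inverting the transformation gave whole counts (within 0.01) for 100% of values, and normalized counts are these divided by the authors' size factors. Low counts were mostly even numbers, which was left unexplained.

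Fits used limma 3.58.1 in R 4.3.3 with a trended prior variance, 6 groups of genotype and day (9 when clones were compared) and Benjamini-Hochberg adjustment over 20703 genes. limma-voom on the inverted counts was the alternative to the model. Others were scaling, filters, clones apart, a replicate block and each library left out in turn. The fit was also tried on simulated data, and nothing here is read from that.

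The members and the 28 gene lists were chosen with earlier results of these data known. Genes named are the 12 with the largest smallest difference, members of a list, the extremes of the change of the KO effect, members called between clones, the most and least abundant, those nearest the threshold, and neighbours within 100 kb. Other genes are named in passing only, after their values were seen. GENCODE M21 (GRCm38) gave the chromosomes and gene order, and in it all 130 members and 99.5% of genes were found, and no coordinates of it are given. p-values measure the spread between libraries labelled as biological replicates. Members outside this rule, and 1 member that is left out, are given by counts and ranges. Exceptions are the X-linked members listed by name and the values of Kctd12b under the alternative model.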

Additional observations from a re-analysis of the deposited data

Results flagged for a closer look

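In 7 of 180 sets of 4 KO libraries of a named member and day (3.89%), 1 library lay apart from the other 3 relative to their range. Chance gives about 1 in 20 such sets for independent libraries, but these come from 2 clones. All 7 were among the 60 sets of day 0, and most had the same library apart, KO-1 replicate 1. The sets of a day share the same 4 libraries, and day 0 was picked after the values were seen, so nothing is read from that share. KO-1 replicate 1 of day 0 had the lowest depth of the KO libraries, 9644240 counts, and 13.2% of genes at 0. The gap took 0.855 of the range in Dnajc6, 0.835 in Fut9, 0.907 in Lgr4 and 0.885 in Nexmif, each with KO-1 replicate 1 highest, and 0.908 in Dppa3, with the same library lowest. It took 0.871 in Gli1, with KO-2 replicate 1 lowest, and 0.908 in Slc27a2, with that library highest. The range itself can be narrow, as in Slc27a2, whose KO libraries of day 0 ran from 1661 to 1727 normalized counts.

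The KO effect of a named member differed between day 4 and day 0 in Ptch1 (1.52), Tek (1.16), Rragd (1.08), Lefty1 (1.06), Piwil2 (0.95), Dnajc6 (0.82), Slc27a2 (0.74), Smoc1 (0.63), Fbxo15 (0.59), Adgrg6 (−0.65) and Ppp2r2c (−0.76), as log2 differences on the VST scale called by the interaction in limma. These differences are made of the values that chose the members and are given as a description. It differed between day 2 and day 0 in Ptch1 (1.6), Fbxo15 (1.05), Tek (1.03), Dnajc6 (0.96), Sema3e (0.79), Slco4c1 (0.74), Lmo7 (0.66), Igf2bp2 (0.64), Usp26 (0.62) and Ina (−0.66). Between the clones, the KO-1 minus KO-2 difference was called in Nckap1l (0.66) and Xlr3c (0.64) at day 0, in Xlr3c (0.64) at day 2 and in Lefty1 (−0.70) at day 4.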

How the results depend on the processing

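The number of members was 766 when the rule was applied to log2 of the normalized counts plus 1, a set that held all 130, and 19 with a difference of at least 1 at each day. Median centring gave 142, quantile normalization 117, and leaving out 1 library 121 to 134. With limma-voom on the recovered counts, which does not compress low genes, the members called were 81 in WT and 63 in KO from day 0 to day 4, 53 for the change of the KO effect by day 4, of which 17 were among the 21 called on the VST values, and 35 by day 2. The 4 not shared included Adgrg6 and Kctd12b, whose value turned from 0.67 to −0.56. Between the clones limma-voom called 4, 2 and 5 members at the 3 days. With 1 library left out, the clones differed in 2 to 4 members at day 0, 1 to 2 at day 2 and 1 to 4 at day 4. The higher counts came without KO-1 replicate 2 of day 0 (4 at day 0 and 2 at day 4), KO-1 replicate 1 of day 0 (2 at day 4), KO-1 or KO-2 replicate 2 of day 2 (2 at day 2) and KO-1 replicate 2 of day 4 (4 at day 4). The cause was not tested. The other alternatives run kept each count within 1.5 times. Same-numbered replicates of a day correlated over 10351 genes by −0.23 to −0.002 at day 0 and by −0.50 to 0.35 at day 4. At day 2 the correlations were all positive, from 0.37 to 0.48. The replicates were not treated as pairs. A replicate block gave 48 and 41 members called over time in WT and KO, 21 and 22 for the KO effect and 2, 1 and 1 between clones. With 2 WT libraries a day the spread of WT rests on few samples, and genes near 0 counts in WT have ratios that 1 or 2 counts can move.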
